A study of Mus musculus with 32 samples.

Results

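The interleukin-1 and inflammasome genes were followed in BV-2 cells, immortalised microglia of the mouse, as 10 genes taken by name from the 45706 genes of the deposited table. They are the ligands Il1b, Il1a and Il18, the receptor antagonist Il1rn, the sensors and adaptor Nlrp3, Nlrp1b and Pstpip1, the caspases Casp1 and Casp4, and the pore-forming protein Gsdmd. Each was read in 32 libraries of total RNA depleted of ribosomal RNA, in 8 groups of 4. The cells had received a mimic, a synthetic duplex that works like a mature microRNA, for miR-7a, miR-29a or miR-146a. The controls had received a scramble duplex. The groups named VEH received vehicle, and those named LPS received lipopolysaccharide (LPS), a component of the outer membrane of Gram-negative bacteria, at 10 ng/ml for 24 h. The labels place the LPS before the transfection and the study's methods place it after. All groups come from this 1 line, of genotype WT, which the labels call glioblastoma. The study describes the libraries of a group as independent experiments, and the p-values measure the spread between them.

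Interleukin-1 alpha and beta are inflammatory cytokines that share a receptor, which the product of Il1rn blocks without signalling. In macrophages and microglia a first signal such as LPS, sensed by TLR4 and passed on through NF-kappa-B, raises the messenger of Il1b. A second signal assembles an inflammasome, a complex of a sensor such as NLRP3, an adaptor and caspase-1, which cuts pro-interleukin-1 beta, pro-interleukin-18 and gasdermin D. The protease encoded by mouse Casp4 binds LPS in the cytosol and also cuts gasdermin D, whose fragment forms pores in the plasma membrane. RNA libraries measure the messengers and not the cutting or the release of the proteins.

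The mature microRNAs are shown because their seeds, bases 2 to 8 in capitals, set which messengers they can pair with. The sequences are from RefSeq (GRCm38.p6) and share no seed.
miR-7a-5p: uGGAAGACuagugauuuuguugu
miR-29a-3p: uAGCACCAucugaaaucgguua
miR-146a-5p: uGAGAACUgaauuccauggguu
A match to a seed in the 3' UTR of the members' transcripts was found for 2 of the 10 members, each with 1 match to bases 2 to 8. The match to miR-7a lies in Nlrp3 on the plus strand at chr11:59566691-59566697 (GRCm38), and the match to miR-29a in Pstpip1 on the plus strand at chr9:56128822-56128828. They are printed with 10 bases on either side and the match in capitals.
Nlrp3, miR-7a: cttcagtcttGTCTTCCtgttaactga
Pstpip1, miR-29a: ccaagcccggTGGTGCTgggaatgggc
No member held a match to miR-146a. The search also counted a match that lacks base 8 and is followed by an A, in the members and in all genes alike. Among 21866 genes with a 3' UTR, 22.3% held a match of either kind to miR-7a, 15.4% to miR-29a and 17.5% to miR-146a. A match is a description of the sequence and not a measured binding site.

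Promoter windows from RefSeq (GRCm38.p6), from 250 bases before to 50 after a start site, covered 9 of the 10 members in 14 windows. They were searched on both strands for the NF-kappa-B consensus and for the interferon-stimulated response element GAAANNGAAA. The NF-kappa-B consensus was in both windows of Casp4, as 2 matches that overlap by all but 1 base, and in 1 of the windows of Nlrp3. It was in 4.51% of 32851 promoter windows of the genome. GAAANNGAAA was in none of the members' windows and in 3.44% of all windows. The Casp4 window at chr9:5308599-5308898 and the Nlrp3 window at chr11:59541319-59541618, both on the plus strand, are shown because the consensus was found there. Casp4 was called under LPS with scramble, miR-7a and miR-29a but not with miR-146a, and Nlrp3 with none. The difference between the genes was not tested. Capitals mark the consensus, on the minus strand in Nlrp3.
Casp4: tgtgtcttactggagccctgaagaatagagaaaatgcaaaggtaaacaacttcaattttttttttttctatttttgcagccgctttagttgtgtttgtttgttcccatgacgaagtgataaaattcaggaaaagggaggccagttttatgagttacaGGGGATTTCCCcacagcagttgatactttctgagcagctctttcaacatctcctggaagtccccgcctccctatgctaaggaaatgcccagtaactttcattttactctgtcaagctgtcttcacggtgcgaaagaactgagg
Nlrp3: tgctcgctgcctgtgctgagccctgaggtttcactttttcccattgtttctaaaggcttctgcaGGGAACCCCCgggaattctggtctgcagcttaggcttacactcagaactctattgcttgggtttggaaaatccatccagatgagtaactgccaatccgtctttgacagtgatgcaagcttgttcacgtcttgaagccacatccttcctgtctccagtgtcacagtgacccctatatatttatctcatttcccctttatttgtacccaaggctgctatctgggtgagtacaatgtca

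The deposited table had lost its decimal marks, which were put back by a model before use. Of the 320 values of the members, 41 had lost decimals, and 1 reading stayed uncertain, that of Nlrp1b in LPS_miR-29a replicate 2. Comparisons that need that library were not tested for Nlrp1b. Library totals ran from 1149820 to 21491722 restored counts. Small structural RNAs took 32.3% to 35.3% of the counts in VEH_miR-7a replicates 2 to 4, against 5.8% in replicate 1 and 2.78% to 16.9% in the libraries of the other groups. Levels are given as CPM, the restored counts scaled to a common library size. Of 12 microglia and macrophage markers, 11 had a median over 1 CPM and Cx3cr1 did not (0.594 CPM). The summed level of these markers was 3780.0 to 5709.7 CPM in vehicle libraries and 2270.4 to 3964 CPM in LPS libraries. Among the markers of neurons, astrocytes, oligodendrocytes, endothelial cells, T cells and neutrophils, Mbp had a median of 2.94 CPM and a highest value of 16.2 CPM, and S100a9 was at 0 in all libraries. For the cell types other than oligodendrocytes, summed levels were at most 3.37 CPM in any library for endothelial cells, 3.14 for T cells, 2.94 for neurons, 1.32 for astrocytes and 0.0957 CPM for neutrophils. Whether the shift of the microglia markers takes part in the responses below was not tested.

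Levels per length set Gsdmd apart in resting cells. In VEH_scramble, the exonic level of Gsdmd was 47.4 ± 5.33 CPM per kb, that of Casp1 18.8 ± 8.69 and that of Nlrp3 7.15 ± 0.377 (SD, n = 4 throughout). Il18 (4.18 ± 2.39), Pstpip1 (3.89 ± 1.32), Il1rn (3.25 ± 1.16), Casp4 (3.06 ± 0.545), Il1a (2.83 ± 0.796) and Nlrp1b (1.92 ± 0.577 CPM per kb) followed, and each of these neighbours lay within 1 SD of the next except Nlrp1b. Il1b was lowest at 0.251 ± 0.266 CPM per kb. In LPS_scramble the order began with Gsdmd (48.2 ± 7.71), Casp1 (25.5 ± 13.4), Il1rn (13.9 ± 2.87), Il1a (12.2 ± 2.05), Casp4 (12.2 ± 0.91) and Pstpip1 (10.1 ± 0.45 CPM per kb). Il1a lay within 1 SD of its neighbours Il1rn and Casp4, by the SD of either gene of the pair. Below them were Il18 (6.23 ± 1.34), Nlrp3 (5.82 ± 0.403), Il1b (3.77 ± 2.24) and Nlrp1b (1.01 ± 0.24 CPM per kb). By the mean, Gsdmd and Casp1 ranked highest in both groups, and Il1b ranked last without LPS and next to last with it. In LPS_scramble Il1rn lay within 1 SD of Casp1, by the wide SD of Casp1.

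**Figure D1:**
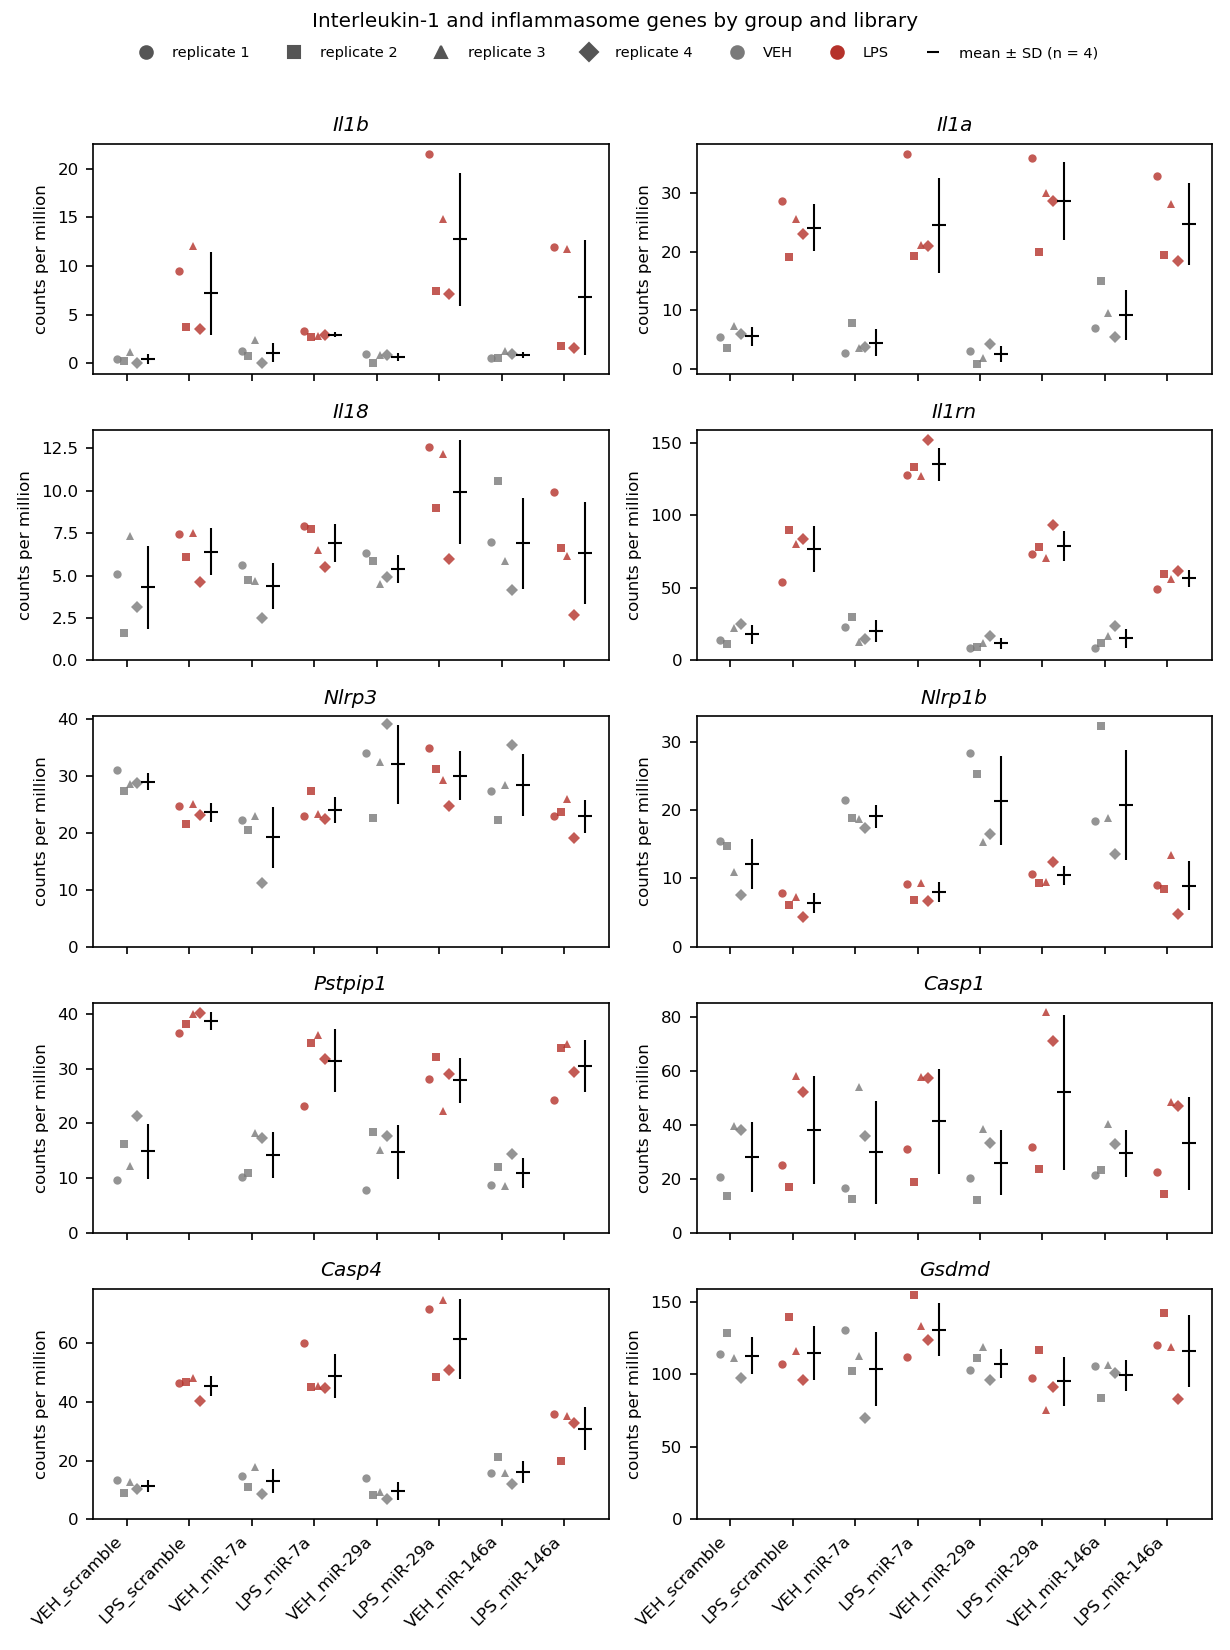
CPM of the 10 genes (vertical axes, linear, starting at or just below 0) in each library of the 8 groups, with the replicate number as the symbol, vehicle in grey and LPS in red; black lines are the mean ± SD of 4 libraries. Il1b, Il1a, Il1rn, Pstpip1 and Casp4 are higher in LPS_scramble than in VEH_scramble without overlap, and Nlrp3 is lower without overlap. The share of all genes apart in this way was not counted. The LPS_miR-29a replicate 2 point of Nlrp1b is an uncertain reading.

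The first comparison asked how each gene answered LPS within each mimic. A gene was called where the limma voom test gave a Benjamini-Hochberg adjusted p under 0.05 over all genes tested and an absolute log2 fold change above 0.3. With scramble, 6 of the 10 members were called, 5 higher and 1 lower, where 17.1% of 12287 genes were called (8.92% higher, 8.13% lower). With miR-7a, 5 of 10 were called, 4 higher and 1 lower, against 6.63% of all genes (2.88% higher, 3.75% lower). With miR-29a, 5 of 9 tested were called, all higher, against 25.3% of all genes (12.4% higher, 12.9% lower). With miR-146a, 3 of 10 were called, all higher, against 3.84% of all genes (2.49% higher, 1.34% lower). In the same order these shares rest on 2095, 789, 3105 and 465 called genes, which ran from 1043 to 2743, 425 to 846, 2015 to 3428 and 202 to 492 when 1 library was left out, and the miR-7a share includes the 3 vehicle libraries rich in structural RNA. With the replicate number as a block the called genes numbered 2853, 1624, 4298 and 693, and the called members 6, 5, 7 and 4. The median log2 fold change of the tested members was 1.00, 0.94, 0.90 and 0.57 in that order, and that of all genes lay between -0.02 and 0.02. Il1a, Il1rn and Pstpip1 were called with all 4 mimics, and Nlrp3 and Gsdmd with none. In bulk libraries a change in the number of cells that express a gene and one in the RNA per cell cannot be told apart.

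**Figure D2:**
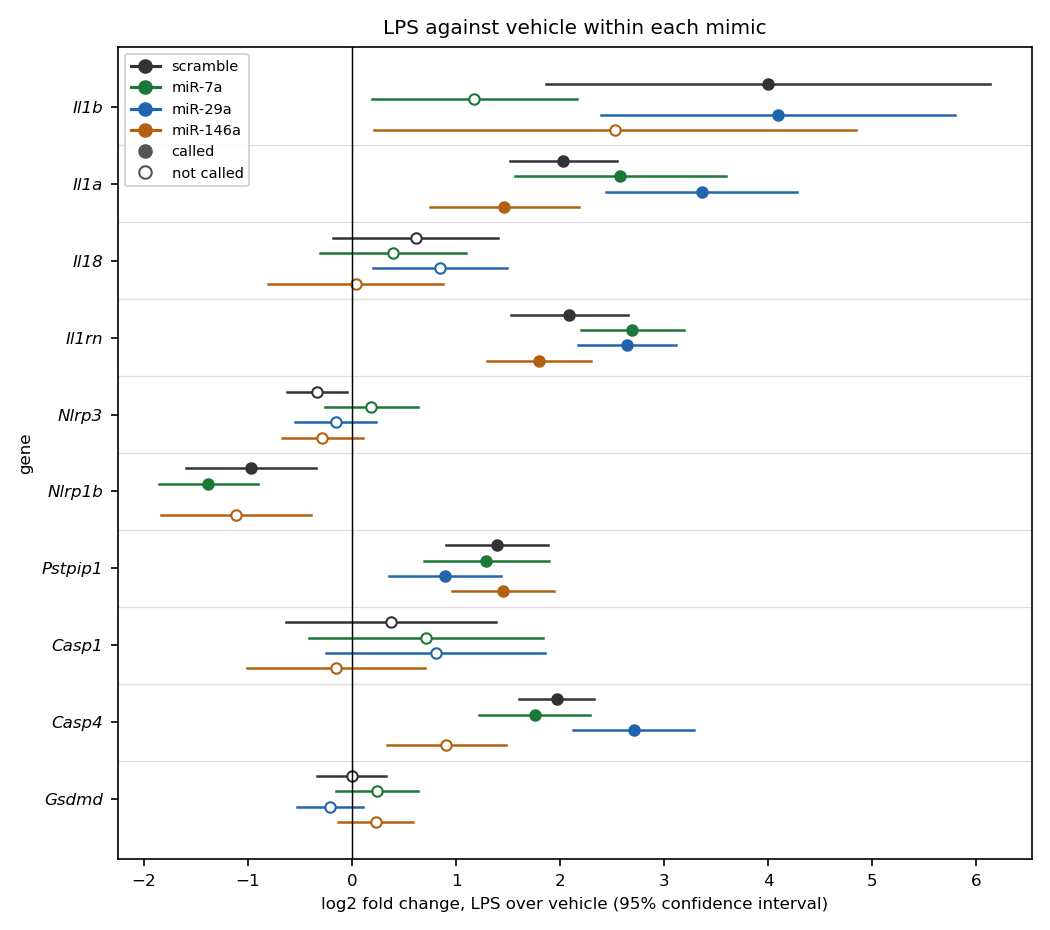
Log2 fold change of LPS over vehicle (horizontal axis) for each gene with the 95% confidence interval, with 1 colour for each mimic; filled points passed the threshold and open points did not. Il1a, Il1rn and Pstpip1 are filled in all 4 mimics, Casp4 in all but miR-146a, and Nlrp1b lies below 0.

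Il1b (chr2:129364570-129371139, minus strand), the secreted cytokine that needs caspase-1, was barely detected without LPS. In VEH_scramble replicates 1 to 4 it stood at 0.462, 0.272, 1.18 and 0 CPM, 9 counts in all, and in LPS_scramble at 9.48, 3.69, 12.04 and 3.51 CPM, 344 counts in all. The groups did not overlap, and Il1b rose by 4.00 ± 0.96 on the log2 scale (SE, adjusted p = 0.0193, limma voom), higher in 4 of 4 replicate numbers. Without VEH_scramble replicate 2 or replicate 4 the adjusted p was 0.0582 and 0.0699.

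With miR-29a, Il1b went from 0.971, 0, 0.804 and 0.864 CPM to 21.5, 7.4, 14.8 and 7.16 CPM, a rise of 4.09 ± 0.77 log2 units (adjusted p = 0.00403, limma voom). With miR-7a it went from 1.23, 0.786, 2.35 and 0 CPM to 3.28, 2.68, 2.85 and 2.91 CPM, and the log2 fold change of 1.18 ± 0.45 did not pass (adjusted p = 0.162, limma voom). All 4 vehicle and LPS values were apart there too, but the vehicle libraries are shallow, and 3 counts correspond to 3.73 CPM in VEH_miR-7a replicate 4. With miR-146a, LPS gave 11.99, 1.75, 11.8 and 1.59 CPM against 0.582, 0.587, 1.21 and 0.942 CPM in vehicle, and the log2 fold change of 2.53 ± 1.05 did not pass (adjusted p = 0.241, limma voom). With the replicate number as a block it passed (2.69, adjusted p = 0.0189, limma voom), though some same-numbered libraries correlated weakly there (lowest r 0.0673). In LPS_scramble, LPS_miR-29a and LPS_miR-146a, replicates 1 and 3 were higher than replicates 2 and 4, whereas LPS_miR-7a was even. The antisense gene Il1bos overlaps Il1b on the other strand and stayed at or below 0.926 CPM in every library, and whether the counting used the strand is not given in the sources used here.

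Il1a (chr2:129299610-129309972, minus strand), which encodes the cytokine that is active without cutting, rose with every mimic. Its levels were 5.54, 3.53, 7.34 and 5.91 CPM in VEH_scramble and 28.8, 19.2, 25.6 and 23.1 CPM in LPS_scramble, a rise of 2.03 ± 0.23 log2 units (adjusted p = 0.000443, limma voom). With miR-29a the vehicle levels were 3.16, 0.926, 1.93 and 4.23 CPM and the LPS levels 36.04, 19.99, 30.1 and 28.7 CPM, a rise of 3.36 ± 0.42 (adjusted p = 0.000424, limma voom). The groups were apart by a wide margin in both mimics. With miR-7a the rise was 2.58 ± 0.46 (adjusted p = 0.00736, limma voom), from 2.82, 7.86, 3.53 and 3.73 CPM to 36.7, 19.2, 21.1 and 21.1 CPM, and without VEH_miR-7a replicate 1 the adjusted p was 0.0662. With miR-146a the vehicle levels were highest, 6.99, 15.1, 9.59 and 5.38 CPM, against 33.1, 19.5, 28.3 and 18.5 CPM under LPS, and the rise was 1.46 ± 0.32 (adjusted p = 0.0323, limma voom). This last call held in 3 of the 8 fits that left out 1 library, and was lost without VEH_miR-146a replicate 1, 3 or 4 or LPS_miR-146a replicate 1 or 3 (adjusted p up to 0.118).

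Il18 (chr9:50554827-50581840, plus strand), the inflammasome-processed cytokine that drives interferon gamma, was present before LPS and was not called with any mimic. It stood at 5.08, 1.63, 7.34 and 3.17 CPM in VEH_scramble and at 7.45, 6.08, 7.54 and 4.61 CPM in LPS_scramble, a log2 fold change of 0.61 (95% confidence interval -0.18 to 1.40, adjusted p = 0.26, limma voom). The groups overlapped. With miR-29a it went from 6.31, 5.86, 4.5 and 4.9 CPM to 12.6, 9.01, 12.2 and 5.97 CPM, a log2 fold change of 0.85 ± 0.29 that fell short (adjusted p = 0.0555, limma voom) and passed with the replicate number as a block (0.83, adjusted p = 0.0308). It also passed without LPS_miR-29a replicate 4 (adjusted p = 0.015), with limma trend (0.0486), in 1 fit over 32 libraries (0.0449) and with restored values kept only at a posterior of 0.99 (0.0494), and over all alternatives the adjusted p ran from 0.015 to 0.288. Il18 overlaps Bco2 and Tex12 on the other strand.

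Il1rn (chr2:24336853-24351494, plus strand), the receptor antagonist, rose with every mimic. Its levels were 14.01, 11.1, 22.03 and 24.7 CPM in VEH_scramble and 53.8, 89.7, 80.4 and 83.8 CPM in LPS_scramble, a rise of 2.09 ± 0.25 log2 units (adjusted p = 0.000572, limma voom). With miR-7a it went from 22.9, 29.9, 12.9 and 14.9 CPM to 128, 134, 127 and 152 CPM, a rise of 2.69 ± 0.22 (adjusted p = 6.28e-05, limma voom). These 4 libraries were the highest of all 32. With miR-29a the rise was 2.65 ± 0.21 (adjusted p = 4.71e-05) and with miR-146a 1.80 ± 0.23 (adjusted p = 0.0017, both limma voom). The calls of Il1rn held in all 8 fits that left out 1 library, with each mimic.

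Nlrp3 (chr11:59541568-59566956, plus strand), the best-known inflammasome sensor, was not called in any LPS comparison. It stood at 31.1, 27.4, 28.7 and 28.8 CPM in VEH_scramble and at 24.7, 21.5, 25.1 and 23.1 CPM in LPS_scramble. All 4 LPS values were below all 4 vehicle values, but the log2 fold change of -0.34 (95% confidence interval -0.63 to -0.05) had an adjusted p of 0.0987 (limma voom). With the other mimics the log2 fold change was 0.19 for miR-7a, -0.16 for miR-29a and -0.28 for miR-146a (adjusted p = 0.674, 0.543 and 0.444, limma voom).

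Nlrp1b (chr11:71153102-71230733, minus strand), a sensor that in mice answers to proteases of pathogens, fell under LPS. Its levels were 15.4, 14.7, 10.9 and 7.55 CPM in VEH_scramble and 7.79, 6.01, 7.27 and 4.39 CPM in LPS_scramble, and the groups overlapped at the replicate 4 vehicle value. It decreased by 0.97 ± 0.28 log2 units (adjusted p = 0.0401, limma voom), and 2 of the 8 fits that left out 1 library kept the call, those without VEH_scramble replicate 4 and without LPS_scramble replicate 3. The other 6, without VEH_scramble replicate 1, 2 or 3 or LPS_scramble replicate 1, 2 or 4, gave adjusted p up to 0.137. With miR-7a it went from 21.4, 18.9, 18.7 and 17.4 CPM to 9.21, 6.89, 9.23 and 6.66 CPM, a fall that all 8 such fits kept (log2 fold change -1.38 ± 0.22, adjusted p = 0.00329, limma voom). With miR-146a the log2 fold change of -1.11 ± 0.33 did not pass (adjusted p = 0.0951). With miR-29a the vehicle levels were 28.4, 25.3, 15.3 and 16.4 CPM, and the LPS levels 10.6, 9.25, 9.48 and 12.3 CPM, the second of them the uncertain reading. With that reading kept, as an alternative added after the data were seen, the log2 fold change was -0.98 ± 0.23 (adjusted p = 0.0132, limma voom). Mouse Nlrp1b has close paralogs, and how the counting split reads between them is not given in the sources used here.

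Pstpip1 (chr9:56089962-56128888, plus strand), which encodes an adaptor that binds the inflammasome protein pyrin, rose with every mimic. Its levels were 9.7, 16.3, 12.3 and 21.3 CPM in VEH_scramble and 36.6, 38.2, 40.03 and 40.2 CPM in LPS_scramble, a rise of 1.39 ± 0.22 log2 units (adjusted p = 0.00249, limma voom). The LPS libraries were tightly grouped and well above the vehicle ones. With miR-7a the rise was 1.29 ± 0.27 (adjusted p = 0.0178), with miR-29a 0.90 ± 0.24 (adjusted p = 0.0233) and with miR-146a 1.45 ± 0.22 (adjusted p = 0.00458, all limma voom). The call with miR-7a was lost without VEH_miR-7a replicate 1 (adjusted p = 0.149) or 2 (0.0531), and that with miR-29a without VEH_miR-29a replicate 3 (0.0624). Leaving out VEH_miR-7a replicates 2 to 4, rich in structural RNA, left 1 vehicle library, from which no call can be judged. The log2 fold change was then 1.60 for Pstpip1 and -1.45 for Nlrp1b.

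Casp1 (chr9:5298517-5307265, plus strand), the protease that matures interleukin-1 beta, was not called, and its libraries were split by replicate number rather than by group. It stood at 20.6, 13.6, 39.8 and 38.3 CPM in VEH_scramble and at 25.1, 17.1, 58.2 and 52.1 CPM in LPS_scramble. Within each replicate number LPS was higher, yet the log2 fold change of 0.38 ± 0.46 did not pass (adjusted p = 0.595, limma voom), nor with the replicate block (0.40, adjusted p = 0.071). With miR-29a it went from 20.4, 12.03, 38.4 and 33.4 CPM to 31.9, 23.7, 81.8 and 71.04 CPM. There the log2 fold change of 0.80 ± 0.47 (adjusted p = 0.239) became 0.97 with the replicate block (adjusted p = 0.00151, both limma voom). Higher values under LPS were seen in 4 of 4 numbers with scramble, miR-7a and miR-29a and in 3 of 4 with miR-146a.

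Casp4 (chr9:5308828-5336783, plus strand), which lies next to Casp1 and encodes the cytosolic LPS receptor, rose with scramble, miR-7a and miR-29a. Its levels were 13.2, 8.96, 12.8 and 10.4 CPM in VEH_scramble and 46.4, 46.7, 48.04 and 40.4 CPM in LPS_scramble, a rise of 1.97 ± 0.16 log2 units (adjusted p = 5.85e-05, limma voom). With miR-29a the levels went from 14.1, 8.33, 9.33 and 6.91 CPM to 71.6, 48.4, 74.8 and 50.98 CPM, the widest change of the gene (2.71 ± 0.26, adjusted p = 0.000113, limma voom). With miR-7a the rise was 1.76 ± 0.24 (adjusted p = 0.00158, limma voom). With miR-146a the levels were 15.7, 21.1, 15.8 and 11.97 CPM in vehicle and 35.9, 19.9, 35.1 and 32.8 CPM under LPS. Replicate 2 of LPS_miR-146a fell within the vehicle range, and the log2 fold change of 0.91 ± 0.26 did not pass (adjusted p = 0.0857, limma voom). Without that library it was 1.15 and passed (adjusted p = 0.0147). Gsdmd (chr15:75862327-75867408, plus strand), the substrate of both caspases, ran from 69.6 to 155 CPM over the 32 libraries. Its log2 fold change was between -0.21 and 0.24 in the 4 LPS comparisons, none of which passed, and with scramble the 95% confidence interval was -0.33 to 0.33.

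The next comparison set each mimic against scramble in cells given LPS, which asks what each mimic changed in the activated state. The 3 mimics share the 4 LPS_scramble libraries. With miR-7a, 1 of 10 members was called, higher, against 1.99% of 13076 genes (1.26% higher, 0.727% lower). With miR-29a 0 of 9 tested were called against 4.11% of all genes, and with miR-146a 0 of 10 against 1.67%. These shares rest on 260, 545 and 211 called genes, counts that ran from 50 to 298, 99 to 553 and 12 to 175 when 1 library was left out. With the replicate block they were 822 for miR-7a, 946 for miR-29a and 985 for miR-146a. At an unadjusted p under 0.05 the members numbered 2, 4 and 4, and all genes 2245 of 13076, 2801 of 13253 and 2169 of 12668. Limma trend also called 0 members with miR-29a and miR-146a. With miR-29a, 1 member was called with the replicate block (Casp1) and 1 without LPS_miR-29a replicate 2 (Pstpip1), both described below. With miR-146a the replicate block called 1 member, Il1rn, also described below.

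**Figure D3:**
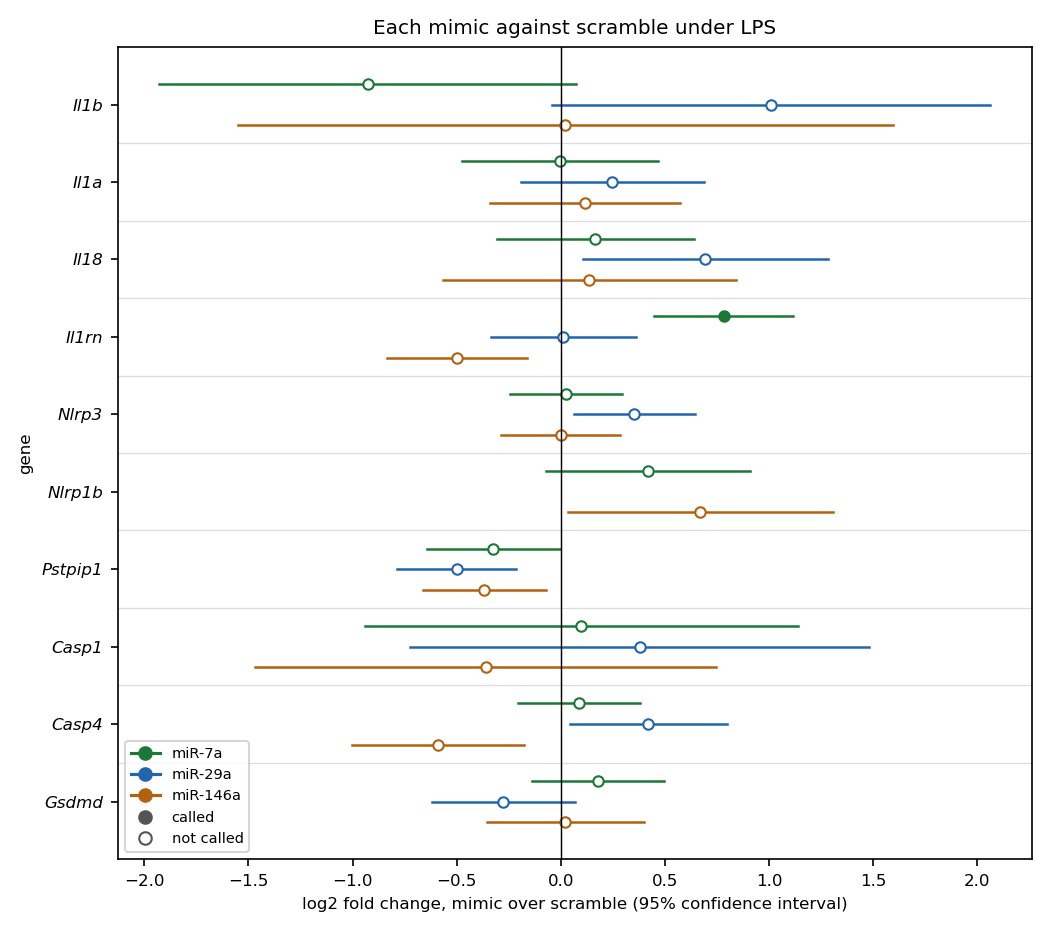
Log2 fold change of each mimic over scramble under LPS (horizontal axis) with the 95% confidence interval; filled points passed the threshold. The only filled point is Il1rn with miR-7a at 0.78, and Pstpip1 lies below 0 with all 3 mimics.

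Il1rn was the member raised by a mimic. Its 4 LPS_miR-7a values (128, 134, 127 and 152 CPM) were above all 4 LPS_scramble values (53.8, 89.7, 80.4 and 83.8 CPM), and it rose by 0.78 ± 0.15 log2 units, 1.72-fold (adjusted p = 0.0326, limma voom). The direction held in 4 of 4 replicate numbers and in all 8 fits that left out 1 library, with log2 fold changes of 0.66 to 0.85. The call held in 2 of them, without LPS_scramble replicate 2 and without LPS_miR-7a replicate 1, and was lost without LPS_scramble replicate 1, 3 or 4 or LPS_miR-7a replicate 2, 3 or 4 (adjusted p up to 0.0999). With miR-29a Il1rn was at 73.6, 78.4, 70.4 and 93.4 CPM (log2 fold change 0.01, 95% confidence interval -0.34 to 0.36). With miR-146a it was at 48.8, 59.8, 55.8 and 61.9 CPM, a log2 fold change of -0.50 ± 0.15 that did not pass (adjusted p = 0.135, limma voom). With the replicate block it passed (-0.47, adjusted p = 0.0388, limma voom), though some same-numbered libraries correlated weakly there (lowest r 0.0768).

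Il1b under LPS did not pass the test with any mimic, though its levels lay on either side of scramble. All 4 LPS_miR-7a values lay below the lowest LPS_scramble value of 3.51 CPM, and the log2 fold change was -0.93 (95% confidence interval -1.93 to 0.07, adjusted p = 0.329, limma voom). The mean was 2.93 ± 0.254 CPM against 7.18 ± 4.27 CPM in LPS_scramble. With miR-29a the mean was 12.7 ± 6.84 CPM and the log2 fold change 1.01 (95% confidence interval -0.04 to 2.06, adjusted p = 0.258, limma voom), higher in 4 of 4 replicate numbers. With miR-146a the mean was 6.78 ± 5.9 CPM and the log2 fold change 0.02 (95% confidence interval -1.55 to 1.59).

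The 2 members with a seed match did not pass for the matching mimic. Pstpip1, with the miR-29a match, was at 28.2, 32.1, 22.3 and 29.01 CPM in LPS_miR-29a, all below LPS_scramble (36.6, 38.2, 40.03 and 40.2 CPM), with a log2 fold change of -0.50 ± 0.13 (adjusted p = 0.0599, limma voom). Without LPS_miR-29a replicate 2 it passed (-0.58, adjusted p = 0.044). The values with miR-7a and miR-146a, for which Pstpip1 holds no match, were also all below LPS_scramble, with log2 fold changes of -0.32 and -0.37 (adjusted p = 0.283 and 0.199). Nlrp3, with the miR-7a match, was at 22.96, 27.4, 23.4 and 22.4 CPM in LPS_miR-7a against 24.7, 21.5, 25.1 and 23.1 CPM, a log2 fold change of 0.03 (95% confidence interval -0.24 to 0.29). In vehicle its 4 VEH_miR-7a values (22.2, 20.4, 22.9 and 11.2 CPM) were all below VEH_scramble, with a log2 fold change of -0.53 ± 0.21 (adjusted p = 0.356, limma voom), and 3 of these libraries are the ones rich in structural RNA.

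Of the caspases, Casp4 was lower in all 4 LPS_miR-146a libraries than in any LPS_scramble library, with a log2 fold change of -0.59 ± 0.19 (adjusted p = 0.15, limma voom), and higher in all 4 LPS_miR-29a libraries (0.42 ± 0.17, adjusted p = 0.191, limma voom). Neither passed. Casp1 with miR-29a had a log2 fold change of 0.38 ± 0.50 (adjusted p = 0.713), and 0.46 with the replicate block (adjusted p = 0.0493, both limma voom), higher in 4 of 4 replicate numbers. Il18 with miR-29a was higher in 4 of 4 numbers (0.69 ± 0.26, adjusted p = 0.169, limma voom). Nlrp1b was higher than scramble in 4 of 4 numbers with each mimic, with log2 fold changes of 0.42 with miR-7a and 0.67 with miR-146a (adjusted p = 0.371 and 0.267, limma voom). With miR-29a and the uncertain reading kept it was 0.79 (adjusted p = 0.0686, limma voom). Gsdmd was between -0.28 and 0.18 with the 3 mimics.

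Against scramble under LPS, Il1a had log2 fold changes of 0.25 with miR-29a, 0.11 with miR-146a and -0.01 with miR-7a, the lowest adjusted p being 0.518 (limma voom). Il18 had 0.17 with miR-7a and 0.14 with miR-146a, Casp1 0.10 and -0.36, and Casp4 0.09 with miR-7a. Nlrp3 had 0.35 with miR-29a (adjusted p = 0.157, limma voom), and with miR-146a its 95% confidence interval was -0.29 to 0.29.

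In resting cells none of the mimics gave a called member. Of 9 tested members, 0 were called with each mimic, in the order miR-7a, miR-29a, miR-146a against 0.216%, 0.0343% and 1.07% of all genes. These shares rest on 24, 4 and 126 called genes, which ran from 8 to 219, 3 to 7 and 7 to 1013 when 1 library was left out. With the replicate block the called genes numbered 226, 16 and 357, and the called members 0 each time. At an unadjusted p under 0.05 the members numbered 2, 2 and 1, and all genes 1367 of 11113, 1199 of 11653 and 2902 of 11771. Limma trend also called 0. Il1b was too low to be tested there. Nlrp1b had the same direction as under LPS, with log2 fold changes of 0.80 ± 0.28, 0.78 ± 0.29 and 0.78 ± 0.32 (adjusted p = 0.305, 0.393 and 0.167, limma voom), higher in 4 of 4 replicate numbers each time, and the 3 comparisons share the VEH_scramble libraries. Il1a with miR-29a had a log2 fold change of -1.13 ± 0.40 (adjusted p = 0.379, limma voom), lower in 4 of 4 numbers, and -0.61 with miR-7a and 0.65 with miR-146a. Il18 had 0.36, 0.42 and 0.69 in the order miR-7a, miR-29a, miR-146a, and Il1rn 0.17, -0.56 and -0.20. Pstpip1 had -0.23, -0.03 and -0.43 in that order, and Nlrp3 0.13 with miR-29a and -0.07 with miR-146a. Casp1 had -0.21, -0.08 and 0.16, Casp4 0.28, -0.34 and 0.45, and Gsdmd -0.10, -0.09 and -0.22.

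Whether a mimic changed the LPS response was tested as the mimic effect under LPS minus that under vehicle. For the 3 mimics in the order miR-7a, miR-29a, miR-146a, 0 of 10, 9 and 10 members passed, against 0.0659%, 0.0812% and 0.00812% of all genes. In that order 2, 2 and 1 members had an unadjusted p under 0.05, and 657 of 12146, 803 of 12312 and 1374 of 12317 of all genes. The shares rest on 8, 10 and 1 called genes, which ran from 6 to 118, 6 to 10 and 1 to 51 when 1 library was left out. Limma trend also called 0. The difference of log2 fold changes with the smallest unadjusted p was that of Casp4 with miR-146a, -1.06 ± 0.31 (adjusted p = 0.357, limma voom). Casp4 had 0.75 ± 0.30 with miR-29a (adjusted p = 0.676, limma voom), of the opposite sign, and -0.20 with miR-7a. Il1b with miR-7a had -3.07 ± 1.23 (adjusted p = 0.786) and Il1a with miR-29a 1.34 ± 0.47 (adjusted p = 0.639, both limma voom). For Il18, Il1rn, Nlrp3, Nlrp1b, Pstpip1, Casp1 and Gsdmd the tested differences lay between -0.58 (Il18 with miR-146a) and 0.61 (Il1rn with miR-7a). A response called with one mimic and not with another, such as that of Casp4 or Il1b, is therefore not shown to differ between the mimics.

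What the levels varied with set the members apart. Over the 32 libraries, LPS or vehicle took 84.7% of the sum of squares of log2(CPM + 1) of Il1rn, 82.9% of Casp4, 79.2% of Il1a, 75.8% of Pstpip1, 64.5% of Il1b and 59.0% of Nlrp1b. It took 18.03% or less of Il18, Casp1, Gsdmd and Nlrp3, the members not called under LPS. The mimic took the most in Nlrp3, 34.4%, and 15.9% in Nlrp1b. These shares are descriptions and were not tested.

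**Figure D4:**
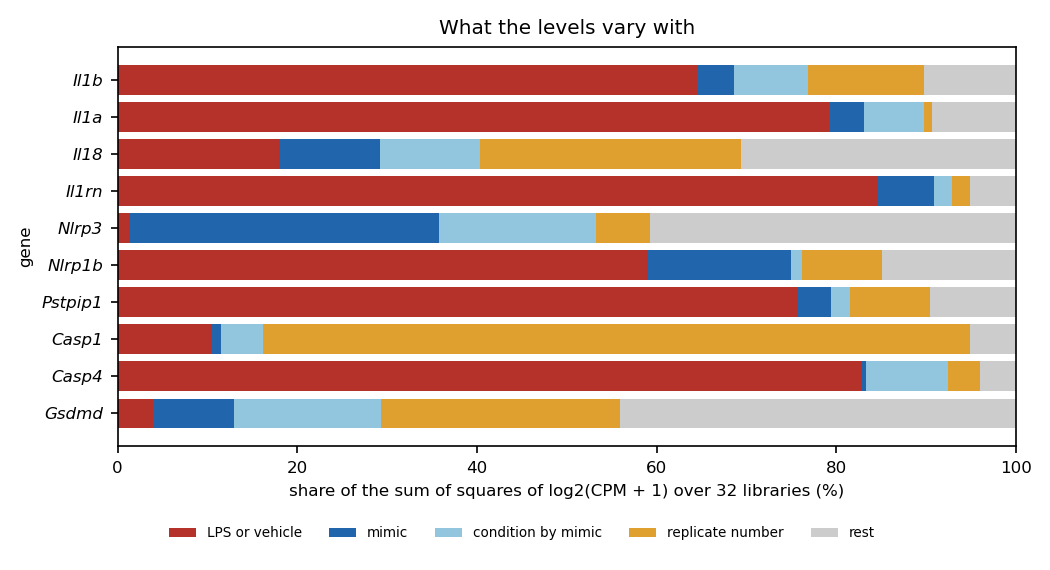
Share of the sum of squares of log2(CPM + 1) over 32 libraries (horizontal axis, percent) that goes with LPS or vehicle, the mimic, both together, the replicate number and the rest, for each gene. LPS or vehicle fills most of the bars of Il1rn, Casp4 and Il1a, and the replicate number fills 78.6% of the bar of Casp1.

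Casp1 stood out by the replicate number, which took 78.6% of its sum of squares. The share was as high or higher in 34 of 12220 genes (0.278%), and the median gene had 13.9%. In replicates 1 and 2, Casp1 ran from 12.03 to 31.9 CPM in 16 libraries, and in replicates 3 and 4 from 32.8 to 81.8 CPM in 16 libraries, with no overlap across vehicle, LPS and all mimics. This split was chosen after the values were seen, and 29 of the 12220 genes (0.237%) were apart in the same way. The neighbouring gene Casp4 had 3.52% by replicate number, and its LPS and vehicle libraries were mixed over the numbers. Whether a replicate number marks the same experiment in every group is not given in the sources used here, and its part in the level of Casp1 was not tested.

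**Figure D5:**
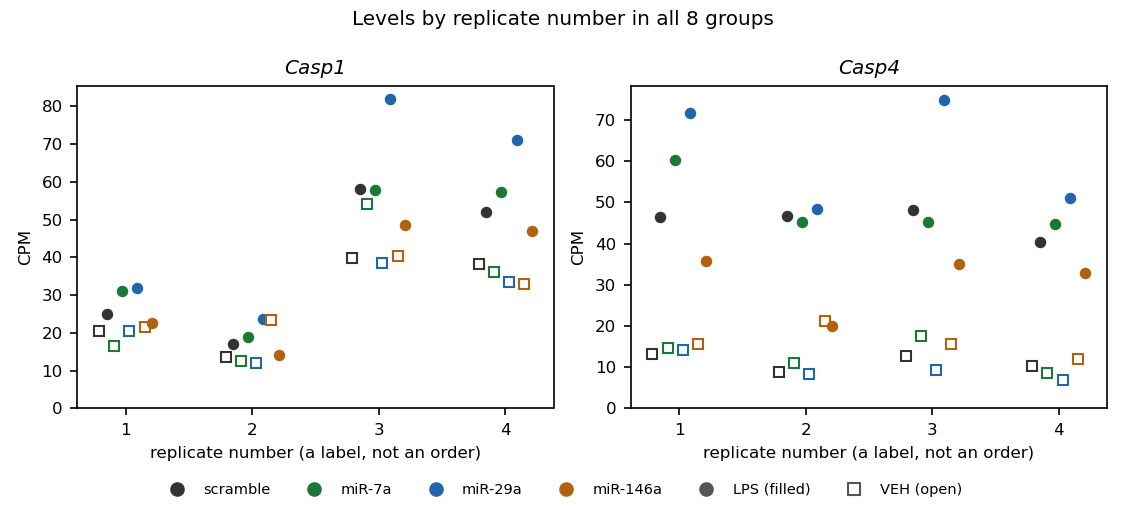
CPM of Casp1 (left) and of its neighbour Casp4 (right) by replicate number, with the mimic as the colour, LPS filled and vehicle open. All Casp1 points of numbers 3 and 4 lie above those of numbers 1 and 2, while the Casp4 points under LPS lie above all its vehicle points except for LPS_miR-146a replicate 2 at 19.9 CPM.

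Other genes of the pathway were taken from 4 lists that hold none of the members. Of 15 further ligands and receptors of the family, 7 could be tested with scramble, and under LPS 2 rose and 1 fell, where 8.92% of all genes were called higher and 8.13% lower. Nothing particular to the 4 lists is read from their counts. Il18bp, which binds and blocks interleukin-18, rose by 1.18 ± 0.35 log2 units (adjusted p = 0.0428) and Il1rap, the shared receptor subunit, by 0.73 ± 0.22 (adjusted p = 0.045), while the decoy receptor Il1r2 fell (-1.41 ± 0.42, adjusted p = 0.0435, all limma voom). Under LPS, miR-7a gave a higher Il18bp than scramble, 12.5 ± 4.57 against 2.14 ± 0.578 CPM (2.39 ± 0.34, adjusted p = 0.011), and a higher Il1r2 (1.14 ± 0.25, adjusted p = 0.049, both limma voom). With miR-29a Il1r2 was lower than scramble (-1.73 ± 0.40, adjusted p = 0.0433) and Il18rap, a subunit of the interleukin-18 receptor, was higher (1.45 ± 0.33, adjusted p = 0.0426, both limma voom). Il1r2 was scarce, at 1.53 ± 0.37 CPM in LPS_scramble.

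Of 14 genes of IL-1 and IL-18 signalling, all tested, 3 rose and 0 fell under LPS with scramble, against 17.1% of all genes called. They were Irak3, an inhibitor of the receptor kinases (1.51 ± 0.23, adjusted p = 0.00208), the ubiquitin ligase Traf6 (0.72 ± 0.20, adjusted p = 0.0334) and Tab3 (0.53 ± 0.16, adjusted p = 0.0433, all limma voom). With miR-29a 2 rose and 1 fell, against 25.3% of all genes called, and with miR-7a and miR-146a 0 passed, against 6.63% and 3.84%. Under LPS, Irak2 was the 1 gene of this list that differed between a mimic and scramble, lower with miR-146a (75.6 ± 7.53 against 108 ± 6.81 CPM, log2 fold change -0.53 ± 0.11, adjusted p = 0.0406, limma voom).

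Of 18 further sensors and partners, 13 could be tested with scramble, and 2 rose and 1 fell under LPS, against the same 17.1%. Txnip, whose protein binds NLRP3 and thioredoxin, fell from 884 ± 183 to 88.9 ± 18.9 CPM (-3.35 ± 0.20, adjusted p = 4.95e-06, limma voom), and Naip1 and Naip2, sensors of bacterial secretion systems, rose by 0.84 and 0.64 (adjusted p = 0.0368 and 0.00822, limma voom). Txnip was also the only gene of the 4 lists whose interaction with a mimic passed. With miR-7a it was at 462 ± 16.2 CPM under LPS, 2.42 ± 0.14 log2 units above scramble (adjusted p = 3.83e-05), and the interaction was 2.48 ± 0.22 (adjusted p = 8.71e-06, all limma voom). With miR-29a, Naip5 and Naip6 were higher than scramble under LPS (0.55 and 0.58, adjusted p = 0.0326 and 0.0237, limma voom), as near-identical paralogs whose reads may be shared.

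Of 14 genes of release and regulation, 13 could be tested with scramble, and 4 rose and 1 fell under LPS, against 17.1% of all genes. Trim30a rose by 3.41 ± 0.25 (adjusted p = 2.66e-05), Tnfaip3, an inhibitor of NF-kappa-B, by 1.13 ± 0.13 (adjusted p = 0.000496) and Dfna5, the gene of gasdermin E, by 0.74 ± 0.23 (adjusted p = 0.0487), the 3 with the largest change, while Serpinb1a, a protease inhibitor, fell (-0.97 ± 0.26, adjusted p = 0.0297, all limma voom). Serpinb9 was higher than scramble with miR-7a under LPS (1.09 ± 0.18, adjusted p = 0.0212). With miR-29a Trim30a was higher (1.07 ± 0.23, adjusted p = 0.0361) and Serpinb1a lower (-0.76 ± 0.13, adjusted p = 0.016, all limma voom). In vehicle, none of the 4 lists held a called gene with any mimic, where 0.216% (miR-7a), 0.0343% (miR-29a) and 1.07% (miR-146a) of all genes were called.

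With miR-7a, LPS raised Il18bp (2.87 ± 0.70, adjusted p = 0.0333) and lowered Txnip (-0.89 ± 0.11, adjusted p = 0.000859, both limma voom), and the other lists had 0 called, against 6.63% of all genes. With miR-146a it lowered Txnip (-2.87 ± 0.40, adjusted p = 0.0027) and raised Trim30a (2.29 ± 0.28, adjusted p = 0.00143) and Tnfaip3 (0.86 ± 0.16, adjusted p = 0.0143, all limma voom). With miR-29a, where 12.4% of all genes were called higher and 12.9% lower, 1 of the tested ligands and receptors rose and 2 fell, 3 of the sensors and partners rose and 1 fell, and 4 of the genes of release and regulation rose and 1 fell. Txnip again had the largest fall among the sensors (-2.64 ± 0.28, adjusted p = 0.000168) and Trim30a the largest rise of the lists (3.21 ± 0.35, adjusted p = 0.000216, both limma voom).

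The genes whose levels ran most like those of Il1b over the 32 libraries were Slc39a4 (Pearson r = 0.895), Batf (0.89) and Treml4 (0.886), among 12219 genes compared on log2(CPM + 1). For Gsdmd, the member with the highest mean level (110 CPM), they included Szrd1 (0.856) and Poldip3 (0.851). The points are libraries that share LPS, mimic and depth, so these values are descriptions.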

How the data were processed

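Total RNA was depleted of ribosomal RNA and sequenced, and reads were assigned to genes of GRCm38 by the nf-core rnaseq workflow, as the study states. The values deposited by the authors are named a score here: whole numbers for 45706 genes and 32 libraries that are estimated counts with the decimal mark lost, up to 1000 times too large. Marks were put back by a model of each gene's level (prior shares of 1, 2 and 3 decimals 0.01, 0.09 and 0.9). The level expected in a library was drawn most from the other libraries of its own group, so the model was not blind to the groups. It was revised on digits, library totals and leading genes before any differential test. It restored 27.5% of 590874 values above 0, and 1.38% stayed uncertain (posterior under 0.9). Genes uncertain in a library of a comparison were left out of it. No 2 libraries were identical, and 0 other columns of values were present.

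CPM was taken from restored counts and library totals scaled by TMM factors. Genes were filtered at a minimum count of 10 and a total of 15. Because the unit is a score, tests were run on restored values with limma 3.58.1 (voom) in R 4.3.3, for each pair of groups, or 16 libraries for an interaction, with p-values adjusted over all genes tested (Benjamini-Hochberg, two-sided). Scripts were tested on simulated data. In the shallowest library 3 counts correspond to 2.61 CPM before TMM scaling, for counting error only.

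All 10 members are named in every group of comparisons, with up to 3 called genes in each direction of the 4 pathway lists and the 3 genes most like Il1b and Gsdmd. Results for 2 genes are not reported here. The members and lists were chosen with earlier results of these data known. Same-numbered libraries correlated above 0.1 in every pair in 4 of the comparisons (LPS against vehicle with scramble and miR-29a, and miR-7a and miR-29a against scramble under LPS, lowest r 0.14, 0.113, 0.149 and 0.222), which pairs them by the data and not by the labels. Over all 10 comparisons of 2 groups the mean r of same-numbered libraries was above 0. It ran from 0.0734 (miR-7a against scramble in vehicle) to 0.27 (miR-29a against scramble under LPS). The column names carry the replicate number, but whether a number marks 1 experiment in every group is not given in the sources used here. The alternatives were the replicate block, 1 fit over 32 libraries, limma trend, median-of-ratios factors, totals without structural and mitochondrial genes, no filter, other settings of the restoration, the values as deposited, the adjusted p alone and leaving out each library. Keeping uncertain values and leaving out VEH_miR-7a replicates 2 to 4 were chosen after seeing the data. Il1b was below the filter in vehicle comparisons of mimics.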

Additional observations from a re-analysis of the deposited data

Results flagged for a closer look

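In the 80 groups of 4 libraries formed by the 10 genes and 8 groups, 2 had a library far from the other 3 by Dixon's test, where chance gives about 1 in 20 groups, or 4. Both are LPS_miR-7a replicate 1. It had 36.7 CPM of Il1a, against 19.2 to 21.1 CPM in the other 3 libraries, and 60.2 CPM of Casp4, against 44.8 to 45.3 CPM.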

How the results depend on the processing

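With the values as deposited, decimal marks not restored, the members called by LPS numbered 1 with scramble and 0 with each of the 3 mimics, and 0 for miR-7a against scramble under LPS. There the direction of 2 called genes turned with scramble, Il1rn to -0.73 and Nlrp1b to 0.52 on the log2 scale (adjusted p = 0.948 and 0.968, limma voom), since values up to 1000 times too large enter the fit. Leaving out VEH_miR-7a replicates 2 to 4 left 1 vehicle library for LPS with miR-7a, so that no call can be judged there. The log2 fold change was 1.60 for Pstpip1 and -1.45 for Nlrp1b. In 1 fit over 32 libraries 5 members were called for LPS with miR-146a, Casp4 (0.91) and Nlrp1b (-1.12) being added, and Il18 passed for LPS with miR-29a (0.88, adjusted p = 0.0449), as it did with limma trend and at a posterior of 0.99; the cause was not tested.

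With the replicate block, 1 member was called for miR-29a against scramble under LPS (Casp1) and 1 for miR-146a (Il1rn, -0.47, adjusted p = 0.0388), and Il1b passed for LPS with miR-146a (2.69, adjusted p = 0.0189, limma voom); beside Casp1 and Il18 with miR-29a it changed no other call. The block raised the genes called of all tested from 260 to 822 for miR-7a, from 545 to 946 for miR-29a and from 211 to 985 for miR-146a against scramble under LPS, from 24 to 226, 4 to 16 and 126 to 357 for the same mimics in vehicle, from 8 to 25, 10 to 22 and 1 to 3 for the interactions, and from 789 to 1624 for LPS with miR-7a.

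Leaving out 1 library gave 4 to 6 called members for LPS with scramble and also with miR-29a, 3 to 5 with miR-7a, 2 to 4 with miR-146a, 0 to 1 for miR-7a and for miR-29a against scramble under LPS, and 0 elsewhere. The genes called of all tested moved more, from 2095 to between 1043 and 2743 for LPS with scramble, from 789 to between 425 and 846 with miR-7a, from 3105 to between 2015 and 3428 with miR-29a, from 465 to between 202 and 492 with miR-146a, from 260 to between 50 and 298 for miR-7a against scramble under LPS, from 545 to between 99 and 553 for miR-29a and from 211 to between 12 and 175 for miR-146a there. The fall of Nlrp1b with scramble missed the threshold without the filter (adjusted p = 0.0687). No other setting reversed a called direction. The libraries of VEH_miR-7a, 1149820 counts at the lowest, limit what can be seen of Il1b there.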
